A study of Mus musculus with 22 samples.

Results

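The p53 target genes described here are 10 genes that p53 is known to switch on: Cdkn1a, Mdm2, Ccng1, Bax, Bbc3, Pmaip1, Phlda3, Eda2r, Trp53inp1 and Sesn1. They were found by their Ensembl gene identifiers among the 34585 entries of each of the 3 organ tables, and all 10 were present. The 22 RNA-sequencing libraries came from C57BL/6 mice of 2 genotypes. Tol mice carry, on 1 allele, a transgene under the ubiquitous CAG promoter, inserted 3′ of Col1a1 in targeted embryonic stem cells. It encodes 1 chimeric protein of split and shuffled fragments of reporter proteins and Cre recombinase, a design meant to keep them from functioning. WT mice were littermates that lack the insertion, and the labels state no treatment, age or sex. Thymus and cerebrum each had 4 libraries of either genotype, and cerebellum had 4 WT and 2 Tol libraries. Each library was made from poly(A) RNA of 1 organ, and the values are estimated counts per gene.

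Library totals ranged from 14543698 counts in Tol cerebrum 4 to 34776973 counts in Tol thymus 1. The Tol transcript served as a check of the genotype labels. It had 448 to 1023 counts in the 4 Tol thymi, 2240 to 3520 counts in the 4 Tol cerebra and 3479 to 4628 counts in the 2 Tol cerebella, against 0 to 2 counts in each WT library, so no genotype label was contradicted. Levels are given as CPM, the count divided by the library's total in units of 1e+06 and scaled by TMM factors over all 22 libraries. The organ labels were checked against marker genes. The 10 thymocyte markers summed to between 8757 and 12018 CPM in the thymi and to at most 46.1 CPM in any brain library, and the 5 forebrain markers to between 435 and 542 CPM in the cerebra and at most 10.4 CPM elsewhere. The 6 markers of cerebellar granule and Purkinje cells (Gabra6, Cbln1, Fat2, Pcp2, Calb1, Zic1) summed to 5484 CPM in Tol cerebellum 1 and to 4264, 2280.2, 5273 and 4462 CPM in the 4 WT cerebella, but to 221 CPM in Tol cerebellum 2, where the cerebra had 128 to 215 CPM. By group mean Calb1 was the most abundant of the 6 in both genotypes, and none was at 0 in Tol cerebellum 2, where they ranged from 10.6 CPM for Pcp2 to 91.8 CPM for Calb1. The 6 neuron markers summed to 4552 CPM and forebrain markers to 5.44 CPM in that library. The library labelled Tol cerebellum 2 therefore goes against its label as cerebellum, and WT cerebellum 2, the lowest of the WT cerebella in these markers, had the most oligodendrocyte marker RNA (13909 CPM against 4059.8 to 5774 CPM in the other 3). For the members, log2 fold changes that include the Tol cerebella are also given without Tol cerebellum 2.

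The transcription factor p53 is kept scarce in resting cells by the ubiquitin ligase Mdm2 and accumulates after DNA damage, oncogene activity or nucleotide shortage. It then activates genes that stop the cell cycle, trigger death through mitochondria, limit growth signalling or handle oxidative stress, and Mdm2 is itself such a target, which closes a feedback loop. Thymocytes are among the cells most prone to p53-dependent death, whereas most neurons of the adult brain no longer divide. Many targets also have transcription that does not depend on p53. Neither p53 protein nor its binding was measured here.

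Among the genes that feed into the pathway, Trp53 itself had a level of 125, 133, 128 and 129 CPM in the 4 WT thymi, 16.0, 18.6, 18.4 and 16.1 CPM in the WT cerebra and 15.7, 16.0, 15.6 and 15.8 CPM in the WT cerebella. The thymus libraries were all far above both brain regions, with a log2 fold change of 2.92 ± 0.065 (SE, edgeR adjusted p = 6.81e-13) against cerebrum and 3.06 ± 0.065 (SE, edgeR adjusted p = 5.11e-13) against cerebellum. Mdm4, which holds p53 inactive together with Mdm2, was also higher in thymus, by 1.81 ± 0.070 (SE, edgeR adjusted p = 6.2e-11) against cerebrum. Of the p53 family, Trp63 had its highest level in thymus, at 47.7 to 55.8 CPM against 0.643 to 1.52 CPM in cerebrum and 1.16 to 3.62 CPM in cerebellum. Trp73 showed the other arrangement, with 4.49 to 10.5 CPM in WT cerebellum against 0.532 to 0.987 CPM in thymus and 0.180 to 0.965 CPM in cerebrum.

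The 10 members were next compared between the organs of WT mice, where a gene was called when its adjusted p was under 0.05 and its log2 fold change exceeded 1 in size. Against cerebrum, 5 of the 10 were called higher in thymus and 0 lower, while 29.7% of the 17413 genes tested were called higher and 30.2% lower. These 5 were Mdm2, Bbc3, Pmaip1, Eda2r and Trp53inp1, and DESeq2 called the same 5. The median log2 fold change was 0.96 over the members and 0.059 over all genes tested. Against cerebellum, 4 members were called higher in thymus (Mdm2, Bbc3, Pmaip1 and Trp53inp1) and 0 lower, beside 27.4% of genes called higher and 29.7% lower, with medians of 0.89 and −0.010. Between the brain regions edgeR called 0 members, with 6 members at an unadjusted p under 0.05 beside 9866 of all 17413 genes, and DESeq2 called 0 members, while 8.34% of genes were called higher and 10.2% lower in cerebellum. Pmaip1 passed in that contrast without WT cerebellum 2 (−1.07) or WT cerebrum 4 (−1.08), and Eda2r without WT cerebrum 1 (1.06), each in place of −0.83 and 0.78. The 3 comparisons share libraries, so their counts are not independent. Scaling by library totals alone moved the median over all genes from 0.059 to 0.47 in thymus against cerebrum, from −0.010 to 0.26 in thymus against cerebellum and from 0.029 to 0.18 between the brain regions. Under that scaling the sign of Phlda3 turned in the first and last of these and that of Cdkn1a in the last, Sesn1 passed the fold threshold in thymus against cerebrum (1.07), and Ccng1 (1.08) and Eda2r (1.23) passed it in thymus against cerebellum.

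Trp53inp1, whose product assists p53 in cell death and autophagy, separated the organs most. It had 1105, 1059, 956 and 1267 CPM in the 4 WT thymi, against 24.9, 20.2, 20.4 and 20.4 CPM in the WT cerebra and 29.5, 27.5, 27.3 and 24.5 CPM in the WT cerebella. Every WT thymus library was far above every WT brain library, the WT means differed 51.1-fold and 40.3-fold, and the log2 fold change was 5.70 ± 0.121 (SE, edgeR adjusted p = 4.94e-13) against cerebrum and 5.37 ± 0.119 (SE, edgeR adjusted p = 6.78e-13) against cerebellum. In these bulk samples, more cells of a type and more RNA per cell cannot be told apart. Its paralog Trp53inp2 lay on the other side, with a log2 fold change of −2.39 ± 0.198 (SE, edgeR adjusted p = 1.18e-07) in thymus against cerebrum.

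Of the members tied to feedback, Mdm2 had 109, 99.2, 95.2 and 114 CPM in WT thymus, 41.8, 47.7, 46.4 and 41.6 CPM in WT cerebrum and 49.5, 48.2, 47.1 and 55.1 CPM in WT cerebellum. Thymus was above both brain regions without overlap, at a log2 fold change of 1.26 ± 0.080 (SE, edgeR adjusted p = 7.94e-09) and 1.10 ± 0.079 (SE, edgeR adjusted p = 3.13e-08). Ccng1, a cyclin that recruits a phosphatase to Mdm2, had 111 to 129 CPM in WT thymus and 94.7 to 132 CPM in WT cerebrum, which overlapped, and 64.3 to 73.5 CPM in WT cerebellum, below every library of both. Its log2 fold change of −0.71 ± 0.095 (SE, edgeR adjusted p = 5.98e-05) for cerebellum against cerebrum stayed under the fold threshold.

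Cdkn1a, which encodes the cyclin-dependent kinase inhibitor p21, was the member lower in thymus than in both brain regions. It had 16.1, 19.1, 16.9 and 17.6 CPM in WT thymus, 31.0, 48.9, 27.7 and 31.2 CPM in WT cerebrum and 29.1, 30.4, 33.0 and 34.6 CPM in WT cerebellum. The thymus libraries lay below all 8 brain libraries, and cerebrum and cerebellum overlapped, with WT cerebrum 2 the highest of all. The log2 fold change was −0.97 ± 0.154 (SE, edgeR adjusted p = 6.36e-05) for thymus against cerebrum and −0.83 ± 0.153 (SE, edgeR adjusted p = 0.000228) against cerebellum, both under the fold threshold. The first passed it without WT cerebrum 1 (−1.03), WT cerebrum 3 (−1.07), WT cerebrum 4 (−1.02) or WT thymus 2 (−1.02), and it was −0.77 without WT cerebrum 2. With Tol libraries in place of WT, the value for thymus against cerebrum was −0.27 (edgeR adjusted p = 0.334). That for thymus against cerebellum in Tol mice was 0.33, but −0.24 without Tol cerebellum 2, which held 6.53 CPM where Tol cerebellum 1 held 18.8 CPM.

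Among the members that promote cell death, Bbc3, which encodes the BH3-only protein Puma, had 11.1 to 13.8 CPM in WT thymus, 3.24 to 5.51 CPM in cerebrum and 4.27 to 7.94 CPM in cerebellum. Pmaip1, which encodes Noxa, had 10.3, 11.5, 10.7 and 10.5 CPM in WT thymus, 3.20, 4.31, 2.94 and 1.26 CPM in cerebrum and 1.26, 2.44, 1.20 and 1.75 CPM in cerebellum. Among WT libraries both were higher in every thymus than in any brain library, and the brain values of Pmaip1 rest on 21 to 67 counts in cerebrum and 30 to 56 counts in cerebellum. The log2 fold change of Bbc3 was 1.52 ± 0.208 (SE, edgeR adjusted p = 1.63e-05) against cerebrum and 1.03 ± 0.201 (SE, edgeR adjusted p = 0.000386) against cerebellum, where it was under the threshold without WT cerebellum 2 (0.88) or WT thymus 2 (0.99) and in Tol mice (0.65, or 0.056 without Tol cerebellum 2). That of Pmaip1 was 1.90 ± 0.305 (SE, edgeR adjusted p = 6.78e-05) and 2.73 ± 0.314 (SE, edgeR adjusted p = 3.29e-06). Bax, the pore-forming effector on which these proteins act, differed less, with 29.1 to 33.6 CPM in WT thymus against 23.7 to 24.3 CPM in cerebrum and 19.0 to 31.1 CPM in cerebellum, and a log2 fold change of 0.44 ± 0.123 (SE, edgeR adjusted p = 0.00473) against cerebrum. Bax shares 192 bp of exon on the same strand with Gm45808, which held 0 to 13 counts per library against 237 to 1257 for Bax.

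Eda2r, a receptor of the tumour necrosis factor family, was near the limit of detection, with 14 to 30 counts in the WT thymi, 3 to 7 counts in the WT cerebra and 6 to 14 counts in the WT cerebella. Its levels of 0.705 to 1.02 CPM in WT thymus were above the 0.180 to 0.379 CPM of cerebrum, with a log2 fold change of 1.74 ± 0.325 (SE, edgeR adjusted p = 0.000228). Against cerebellum (0.262 to 0.541 CPM) it was 0.96 ± 0.288 (SE, edgeR adjusted p = 0.0071), and it passed the fold threshold by DESeq2 (1.03), with DESeq2 size factors in edgeR (1.01), with library totals (1.23) and without WT cerebellum 1 (1.03), WT cerebellum 3 (1.12), WT thymus 1 (1.07) or WT thymus 3 (1.06). In Tol mice these 2 values were 0.42 and −0.11, the latter −0.39 without Tol cerebellum 2. Phlda3, a PH-domain protein that competes with Akt for membrane lipids, had 13.8, 15.3, 13.8 and 16.3 CPM in WT thymus, 13.8, 19.3, 17.9 and 10.9 CPM in cerebrum and 11.1, 29.7, 7.57 and 8.95 CPM in cerebellum. WT cerebellum 2 stood far above the other 3 cerebella, and it was also the library with the most oligodendrocyte marker RNA, whose part in this value was not tested. Without that library the log2 fold change of Phlda3 in thymus against cerebellum went from 0.085 to 0.71. In Tol mice that value was −0.60, and 1.06 without Tol cerebellum 2. Sesn1, a sestrin that restrains mTORC1 and oxidative stress, had 86.2 to 107 CPM in WT thymus, 57.8 to 65.5 CPM in cerebrum and 66.8 to 109 CPM in cerebellum. Cerebrum was lowest, without overlap, at a log2 fold change of 0.66 ± 0.126 (SE, edgeR adjusted p = 0.000316) for thymus against cerebrum.

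Levels can be set against each other between genes only per length, here as CPM per kilobase of the longest annotated transcript. In WT thymus the order was Trp53inp1 (202 ± 23.8, SD, n = 4), Ccng1 (34.1 ± 2.51), Mdm2 (33.2 ± 2.80), Bax (29.1 ± 1.82), Sesn1 (24.7 ± 2.37), Phlda3 (10.3 ± 0.843), Cdkn1a (8.37 ± 0.616), Bbc3 (6.64 ± 0.661), Pmaip1 (3.94 ± 0.196) and Eda2r (0.176 ± 0.0312). The libraries of neighbours from Ccng1 down to Sesn1 overlapped, and those of the other neighbours did not. Measured per length of the merged exons instead, 31 of the 60 places over the 6 groups were kept. In WT cerebrum Ccng1 led with 32.2 ± 4.47, followed by Bax (21.8 ± 0.254), Cdkn1a (16.7 ± 4.61), Sesn1 (15.9 ± 0.902), Mdm2 (14.1 ± 0.989) and Phlda3 (10.8 ± 2.67). Cdkn1a overlapped both Bax and Sesn1 there, Bax lay above Sesn1 in every library, and Mdm2 and Phlda3 overlapped. In WT cerebellum Sesn1 (23.8 ± 4.60), Bax (22.8 ± 4.61) and Ccng1 (19.8 ± 1.11) overlapped at the top, and Mdm2 (15.9 ± 1.13) and Cdkn1a (15.3 ± 1.20) followed. By the longest transcript, Trp53inp1 stood in place 1 in thymus and in place 7 in both brain regions. By that same length Bbc3, Pmaip1 and Eda2r held places 8, 9 and 10 in all 3 organs.

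**Figure D1:**
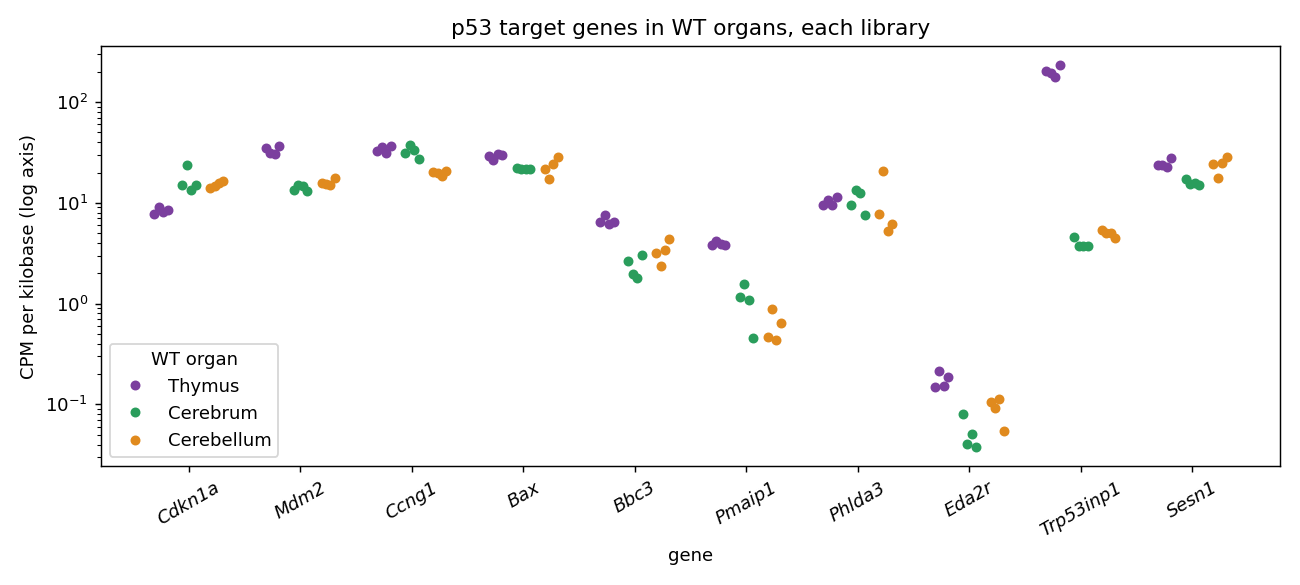
CPM per kilobase of the longest transcript (vertical, log axis) of the 10 p53 target genes (horizontal) in WT organs, 1 point per library and 4 libraries per organ. Trp53inp1 averaged 202 in thymus against 3.95 in cerebrum and 5.01 in cerebellum, and Cdkn1a was lower in thymus (8.37) than in cerebrum (16.7).

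A further 7 lists of pathway genes, 70 genes in all, were read in the same contrasts. In thymus against cerebrum 35 of the 68 tested were called higher and 15 lower, with a median log2 fold change of 1.02, beside 29.7% of all genes higher and 30.2% lower. Of 9 further death genes 7 were called higher and 1 lower, among them the death receptor gene Fas at 4.88 ± 0.239 (SE, edgeR adjusted p = 5.85e-10). Of 9 further arrest and growth genes 4 were called higher and 3 lower, among them Gtse1, a cell-cycle protein that restrains p53 (log2 fold change 5.81 ± 0.238, edgeR adjusted p = 1.05e-10), and the kinase gene Plk2 (log2 fold change −5.61 ± 0.071, edgeR adjusted p = 6.4e-14). Of 5 DNA repair genes 2 were called higher, Ddb2 and Xpc, and 0 lower, with 2.54 ± 0.132 (SE, edgeR adjusted p = 1.06e-09) for Ddb2. Of 10 metabolic targets 3 were called higher and 4 lower, the latter including Ak1 (log2 fold change −6.44 ± 0.117, edgeR adjusted p = 1.85e-13) and the carnitine palmitoyltransferase gene Cpt1c (log2 fold change −5.84 ± 0.147, edgeR adjusted p = 1.6e-12). Of the 12 other BCL-2 family genes 7 were called higher and 3 lower, with the neuronal BH3-only gene Hrk at −7.44 ± 0.485 (SE, edgeR adjusted p = 1.02e-08). Of the 17 regulators 9 were called higher and 2 lower (16 tested), and of the 8 paralogs of members 3 and 2 (7 tested). Against cerebellum the pathway genes gave 32 higher and 13 lower of 68, beside 27.4% of all genes higher and 29.7% lower. Between the brain regions they gave 7 and 7 of 68, beside 8.34% of all genes higher and 10.2% lower.

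The comparison of Tol with WT asks whether transcription differs in mice that carry the transgene. In thymus edgeR called 0 of the 10 members at an adjusted p under 0.05, as did DESeq2, while 16 of 16248 genes other than Tol were called (0.0985%). At an unadjusted p under 0.05 there was 1 member (Eda2r), and 24.4% of all genes. The median log2 fold change was −0.11 over the 10 members and 0.007 over all genes tested. The Tol libraries lay below the WT libraries without overlap for 2 members, Pmaip1 and Eda2r, and above for 0, beside 5.5% of genes lower and 6.11% higher in that way. Pmaip1 had 9.56, 9.02, 9.54 and 10.1 CPM in the 4 Tol thymi and 10.3, 11.5, 10.7 and 10.5 CPM in the WT thymi. All 4 Tol values were under the lowest WT value by a narrow margin, and the log2 fold change was −0.17 ± 0.080 (SE, edgeR adjusted p = 0.227). Eda2r had 0.596, 0.230, 0.410 and 0.634 CPM in Tol and 0.705, 1.02, 0.724 and 0.897 CPM in WT thymi, from 5 to 24 counts and 14 to 30 counts, and a log2 fold change of −0.80 ± 0.302 (SE, edgeR adjusted p = 0.142). The sum of the 7 thymic epithelium markers also separated the genotypes, at 1005 to 1139 CPM in Tol thymi against 953 to 997 CPM in WT thymi, Ccl25 the most abundant and none at 0, though 1 of the 7 did so by itself. Sums of 4 astrocyte markers (47.3 to 52.1 CPM in Tol, 53.9 to 56.3 CPM in WT) and 4 oligodendrocyte markers (138 to 149.6 CPM and 151 to 163 CPM) were also lower in Tol thymi without overlap. Mbp made up most of the latter, where Mog had under 3 counts, and Aldh1l1 in Tol and Slc1a3 in WT were the most abundant of the former. By themselves, 0 of the 4 astrocyte genes and 1 of the 3 oligodendrocyte genes tested lay below WT without overlap. Of these 3 oligodendrocyte genes 2 had a log2 fold change above 0. The part of these contents in the members' values was not tested.

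Bax, which lay on the other side of 0 in thymus, had 31.2, 39.6, 36.7 and 38.0 CPM in Tol and 32.2, 29.1, 33.6 and 32.9 CPM in WT mice. Tol thymi 2, 3 and 4 were above all WT thymi and Tol thymus 1 was among them, at a log2 fold change of 0.19 ± 0.085 (SE, edgeR adjusted p = 0.209). Without Tol thymus 1 Bax was called higher in Tol, at 0.27 (edgeR adjusted p = 0.0251), and the number of genes called went from 16 to 2978. That number was 0 without Tol thymus 2 or 4 or WT thymus 1, 2 or 3, 7 without WT thymus 4, 97 without Tol thymus 3 and 5 with the replicate block. Over the settings tried the adjusted p of Bax ranged from 0.0251 to 0.628. Tol thymus 1 was the deepest library, and it had the most RNA of dividing-cell genes (2680.2 CPM against 1697 to 2355 CPM in the other 7 thymi), whose part was not tested. Cdkn1a had 15.0, 17.1, 16.6 and 15.4 CPM in Tol thymus and 16.1, 19.1, 16.9 and 17.6 CPM in WT thymus, which overlapped, with a log2 fold change of −0.12 ± 0.078 (SE, edgeR adjusted p = 0.37). The other 6 members had log2 fold changes from −0.15 for Trp53inp1 to 0.062 for Sesn1, and that of Phlda3 (−0.038) turned to 0.079 without Tol thymus 1 and to 0.008 without WT thymus 4.

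In cerebrum 9 of the 10 members passed the filter on low counts, and Eda2r, with 3 to 11 counts in Tol and 3 to 7 counts in WT, did not. Of the 9, edgeR called 0, as it did for the 15596 genes tested (0%), and DESeq2 called 1, Cdkn1a, of 183 genes. At an unadjusted p under 0.05 there was 1 member, Cdkn1a, beside 9.66% of all genes. Medians were −0.087 over the 9 and −0.005 over all genes. Tol lay below WT without overlap for 2 members, Cdkn1a and Mdm2, and above for 0, beside 3.17% of genes lower and 3.29% higher.

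Cdkn1a had 19.7, 20.1, 17.2 and 20.2 CPM in the 4 Tol cerebra and 31.0, 48.9, 27.7 and 31.2 CPM in the 4 WT cerebra. The 4 Tol libraries were close to each other and all under the lowest WT library, and WT cerebrum 2 stood apart at the top. The means were 19.3 ± 1.41 CPM (SD, n = 4) and 34.7 ± 9.58 CPM (SD, n = 4), and the log2 fold change was −0.84 ± 0.172 (SE, lower in 4 of 4 Tol libraries) with an unadjusted p of 0.000815 and an edgeR adjusted p of 0.204. DESeq2 gave −0.85 with an adjusted p of 0.00125, and over the other settings edgeR's adjusted p ran from 0.15 to 0.518. Leaving out WT cerebrum 2 gave −0.63 (edgeR adjusted p = 0.225), the smallest size of any library left out. Mdm2 had 39.3, 41.1, 39.7 and 40.0 CPM in Tol and 41.8, 47.7, 46.4 and 41.6 CPM in WT cerebrum. The gap between the groups was under 1 CPM, and the log2 fold change was −0.15 ± 0.067 (SE, edgeR adjusted p = 0.536). Trp53inp1 had 16.3, 16.4, 20.2 and 21.2 CPM in Tol and 24.9, 20.2, 20.4 and 20.4 CPM in WT, which overlapped, at −0.21 ± 0.117 (SE, edgeR adjusted p = 0.594). The other 6 members tested had log2 fold changes from −0.089 for Bax to 0.26 for Pmaip1, and each overlapped between genotypes. The signs of Bbc3 (0.024) and Phlda3 (−0.087) turned without WT cerebrum 2 (−0.053 and 0.038), and that of Bbc3 also without Tol cerebrum 1 (−0.041) or 3 (−0.003) or WT cerebrum 3 (−0.088).

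In cerebellum edgeR called 0 of the 10 members and 0 of 16662 genes (0%), and DESeq2 called 0 members and 9 genes. With 2 Tol libraries, of which 1 went against its organ label, this comparison had the least precision of the 3, and its biological coefficient of variation was 33.2% against 11.2% in thymus and 16.6% in cerebrum. At an unadjusted p under 0.05 there was 1 member, Cdkn1a, and 3.16% of all genes. Medians were −0.094 over the members and 0.010 over all genes. With both Tol libraries, Cdkn1a and Mdm2 lay below WT without overlap and 0 members lay above, beside 5.26% of genes lower and 5.21% higher. Tol cerebellum 1 by itself lay above every WT cerebellum for Bbc3 and Eda2r and below every one for Cdkn1a, Mdm2 and Phlda3. The share of all genes for which this library did so was not counted, and the shares above are for both Tol libraries together. A single library is often the highest or lowest of a few, so this describes the values only. Without Tol cerebellum 2 edgeR called 0 of the 10 and 0 of 17082 genes, 1 member (Cdkn1a) and 2.06% of genes had an unadjusted p under 0.05, and the medians were 0.062 and −0.018.

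Cdkn1a had 18.8 and 6.53 CPM in Tol cerebella 1 and 2 and 29.1, 30.4, 33.0 and 34.6 CPM in the WT cerebella. Both Tol values were under all WT values, and Tol cerebellum 2 was the lowest of the 22 libraries. Summed dividing-cell genes lay on the other side, at 5.94 and 7.70 CPM in these Tol cerebella against 4.62 to 5.29 CPM in WT, with Top2a the most abundant in Tol, Ccna2 in WT and none at 0. Of these 6 genes 2 were above WT without overlap by themselves, beside 5.21% of all genes, and 0 had an unadjusted p under 0.05. The higher of the 2 Tol sums was that of Tol cerebellum 2. Without that library their log2 fold changes ran from −0.407 for Plk1 to 0.578 for Mki67. The part of these genes in the Cdkn1a values was not tested. The log2 fold change of Cdkn1a was −1.31 ± 0.398 (SE, edgeR adjusted p = 0.957). Without Tol cerebellum 2 it was −0.75 (edgeR adjusted p = 0.979) from a single Tol library, which is assumed to vary like the WT libraries, and without both cerebella numbered 2, a setting chosen after seeing the data, it was −0.78. Without Tol cerebellum 1 it was −2.24 (edgeR adjusted p = 0.0551). Mdm2 had 46.1 and 38.4 CPM in the Tol and 49.5, 48.2, 47.1 and 55.1 CPM in the WT cerebella, at −0.22 ± 0.112 (SE, edgeR adjusted p = 0.957) and, without Tol cerebellum 2, −0.12 (without Tol cerebellum 1, −0.34).

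For several members the 2 Tol cerebella lay far apart. Phlda3 had 6.88 and 36.9 CPM in Tol cerebella 1 and 2, against 11.1, 29.7, 7.57 and 8.95 CPM in WT. The high values in both genotypes were the libraries numbered 2, which were also those lowest in cerebellar markers, and the part of tissue content in this was not tested. Sesn1 had 102 and 41.2 CPM in Tol and 91.9, 66.8, 95.6 and 109 CPM in WT cerebella, with the libraries numbered 2 the lowest of each genotype. Bbc3 had 10.6 and 3.47 CPM in Tol and 5.83, 4.27, 6.14 and 7.94 CPM in WT, with the same libraries lowest. Without Tol cerebellum 2 the log2 fold change of Phlda3 went from 0.65 to −1.06, that of Sesn1 from −0.33 to 0.17 and that of Bbc3 from 0.23 to 0.81, so neither the direction nor the size of these 3 can be read from this comparison. Without Tol cerebellum 1 they were 1.40, −1.10 and −0.76. The log2 fold changes of Bax (−0.10) and Pmaip1 (−0.093) also changed sign without Tol cerebellum 2 (0.12 and 0.062), as did Bax without WT cerebellum 4 (0.018) and Pmaip1 without WT cerebellum 2 (0.13). Ccng1 (0.016) and Eda2r (0.24) did so without Tol cerebellum 1 (−0.042 and −0.072), and Ccng1 without WT cerebellum 2 (−0.004) or 3 (−0.016). Without Tol cerebellum 2 these were 0.062 and 0.50, and Trp53inp1 was −0.005 in place of −0.13 ± 0.131 (SE, edgeR adjusted p = 0.957).

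**Figure D2:**
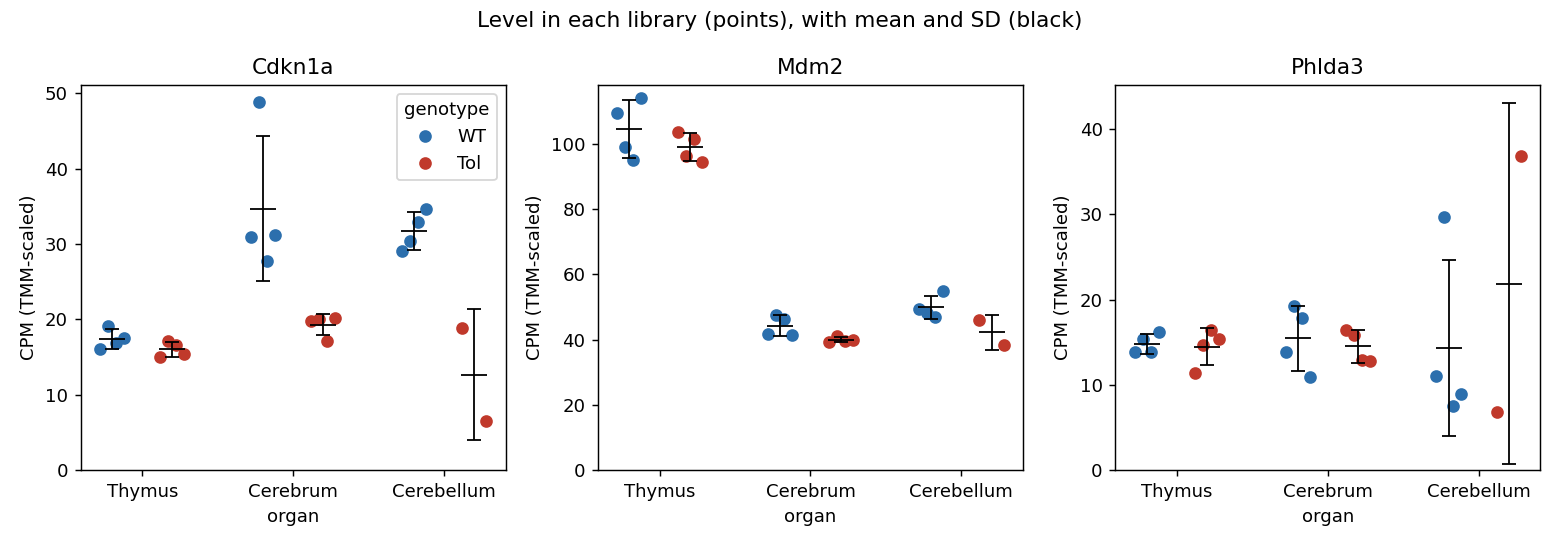
TMM-scaled CPM (vertical) of Cdkn1a, Mdm2 and Phlda3 in each library (points) by organ (horizontal) and genotype (blue WT, red Tol), with the mean and SD in black. For Cdkn1a the Tol cerebra sit at 17.2 to 20.2 CPM, under all WT cerebra (27.7 to 48.9 CPM), and the high Phlda3 values in cerebellum belong to Tol cerebellum 2 (36.9 CPM) and WT cerebellum 2 (29.7 CPM).

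Whether the effect of Tol differed between cerebrum and thymus was tested by the interaction of genotype and organ over 16 libraries. EdgeR called 0 of the 10 members and 19 of 17774 genes (0.107%), while DESeq2 called 1 member, Cdkn1a, and 465 of 28074 genes. At an unadjusted p under 0.05 there were 3 members (Cdkn1a, Bax and Eda2r), beside 16.5% of all genes. For Cdkn1a the Tol effect in cerebrum minus that in thymus was −0.73 ± 0.197 (SE, edgeR adjusted p = 0.116), with a DESeq2 adjusted p of 0.0323 and an edgeR adjusted p of 0.047 without Tol thymus 1, where 1116 genes were called (2 to 42 when another single library was left out), and of up to 0.25 without other libraries. For Bax the difference was −0.28 ± 0.126 (SE, edgeR adjusted p = 0.283), and for Eda2r 1.29 ± 0.530 (SE, edgeR adjusted p = 0.23) from counts of 3 to 30. The cerebellum was not part of this test.

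**Figure D3:**
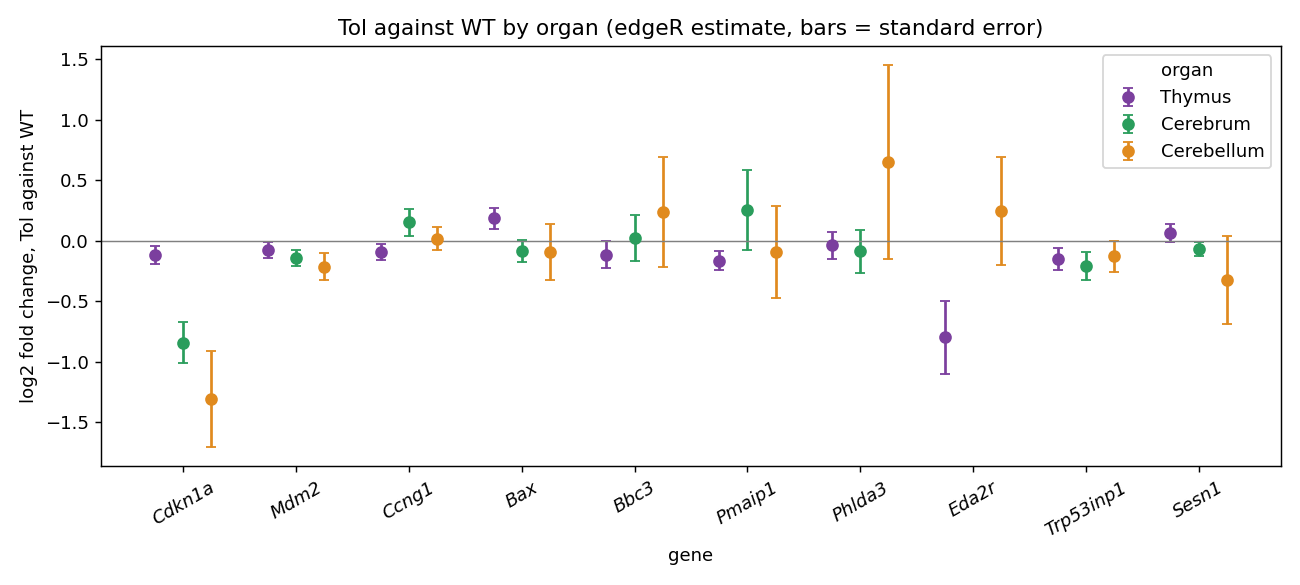
Log2 fold change of Tol against WT (vertical, edgeR estimate, bars are standard errors) for each p53 target gene (horizontal) in thymus, cerebrum and cerebellum. Cdkn1a has the lowest value in cerebrum (−0.84) and, with both Tol libraries, in cerebellum (−1.31), and is near 0 in thymus (−0.12). Without Tol cerebellum 2, which is not shown, Phlda3 was lowest in cerebellum (−1.055) and Cdkn1a was −0.754. None of the 10 passed the adjusted threshold, and Eda2r was not tested in cerebrum.

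Trp53 was not called in any organ, with log2 fold changes of −0.052 ± 0.056 (SE, edgeR adjusted p = 0.599) in thymus and 0.022 ± 0.119 (SE, edgeR adjusted p = 0.969) in cerebrum. In cerebellum the Tol libraries had 16.3 and 18.2 CPM, both above the WT libraries at 15.6 to 16.0 CPM, with a log2 fold change of 0.15 ± 0.113 (SE, edgeR adjusted p = 0.957), and 0.045 without Tol cerebellum 2. Of the 70 genes of the other pathway lists edgeR called 0 of 68 tested in thymus, 0 of 65 in cerebrum and 0 of 66 in cerebellum, while 17, 8 and 4 had an unadjusted p under 0.05, beside 24.4%, 9.66% and 3.16% of all genes. DESeq2 called 6, 2 and 0 of them, and 1252 of 26851, 183 of 24720 and 9 of 24733 genes. The median log2 fold changes of these lists were 0.007, −0.060 and −0.014, and without Tol cerebellum 2 edgeR called 0 of 66 in cerebellum, with 5 at an unadjusted p under 0.05. In cerebrum the lowest p among them belonged to Mcl1, which protects cells from death (64.1, 62.6, 69.1 and 65.7 CPM in Tol, 82.5, 90.5, 74.3 and 88.2 CPM in WT, log2 fold change −0.36 ± 0.073, edgeR adjusted p = 0.204). Plk3, a stress-responsive kinase gene, had 11.0, 8.61, 12.4 and 7.01 CPM in Tol and 15.5, 24.1, 15.4 and 17.3 CPM in WT cerebra (log2 fold change −0.88 ± 0.201, edgeR adjusted p = 0.224), and Gadd45a, another arrest gene, had 5.30 to 7.64 CPM and 8.13 to 13.8 CPM (log2 fold change −0.65 ± 0.195, edgeR adjusted p = 0.333). All 3 lay below WT without overlap, and DESeq2 called Plk3 and Mcl1. At an unadjusted p under 0.05, 1 of the 11 BCL-2 family genes tested in cerebrum was higher and 2 were lower in Tol. In that family 1 gene lay above WT without overlap and 1 below, beside 3.29% and 3.17% of all genes in cerebrum. Of the 8 arrest genes tested 0 were higher and 3 lower at that p. In thymus the lowest p belonged to Bcl2l11, which encodes the BH3-only protein Bim (Tol 66.5 to 77.0 CPM, WT 81.9 to 90.4 CPM, log2 fold change −0.29 ± 0.059, edgeR adjusted p = 0.0687), and to Trp63 (35.0 to 45.3 and 47.7 to 55.8 CPM, log2 fold change −0.40 ± 0.084, edgeR adjusted p = 0.071), both called by DESeq2 and, by edgeR, without Tol thymus 1 (adjusted p = 0.0122 and 0.0181) or Tol thymus 3 (0.0486 and 0.0397). Mdm4 was at 223 to 323 CPM in the Tol thymi, below the WT thymi (327 to 348 CPM, log2 fold change −0.28 ± 0.097, edgeR adjusted p = 0.126), and DESeq2 called it too. On the other side, Bcl2l1, which encodes the survival protein Bcl-xL, was above WT without overlap (Tol 160.4 to 191 CPM, WT 142 to 157 CPM, log2 fold change 0.24 ± 0.069, edgeR adjusted p = 0.0919), and was called by DESeq2 and by edgeR without Tol thymus 1 (adjusted p = 0.0213). Of the 11 BCL-2 family genes tested in thymus 3 were higher and 3 lower in Tol at an unadjusted p under 0.05. Of the 17 regulators 1 was higher and 5 were lower in that way. The regulator gene Cdkn2a was above WT without overlap in thymus (Tol 0.967 to 1.23 CPM, WT 0.329 to 0.828 CPM). These values rest on few counts, 21 to 41 in Tol and 8 to 16 in WT thymi. Neither edgeR with all libraries nor DESeq2 called Cdkn2a. EdgeR called it without Tol thymus 1 (adjusted p = 0.0465), a setting in which 2978 of 16370 genes were called. In cerebellum the lowest p belonged to Fas, with 0.907 and 1.09 CPM in Tol and 2.10, 2.75, 1.66 and 2.18 CPM in WT libraries (log2 fold change −1.09 ± 0.305, edgeR adjusted p = 0.957), and without Tol cerebellum 2 its log2 fold change was −1.25 (edgeR adjusted p = 0.979). Plk3 (−1.01), Hrk (0.79) and Btg2 (0.64) then had lower p than Fas, each at an edgeR adjusted p of 0.979, so the order by p rests on that library.

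The summed glucocorticoid response genes separated the genotypes, which in brain Cdkn1a did too. The 6 genes of that list (Fkbp5, Tsc22d3, Sgk1, Per1, Zbtb16, Ddit4) summed to 275, 243, 329.8 and 229.8 CPM in the Tol cerebra and 487, 511, 408 and 434 CPM in the WT cerebra. In cerebellum the sums were 236 and 249 CPM in Tol and 365, 443, 372 and 342 CPM in WT, and in thymus 539.9, 584, 563 and 526 CPM in Tol and 697, 637, 739.7 and 615 CPM in WT. The sums of Tol lay below those of WT without overlap in all 3 organs, including thymus, where Cdkn1a overlapped. Taken singly, 2 of the 6 lay below WT without overlap in thymus, as did 4 in cerebrum and 3 in cerebellum, while 1, 0 and 2 had a log2 fold change above 0. Over all genes 5.5%, 3.17% and 5.26% lay below WT in that way. The most abundant of the 6 was Tsc22d3 in Tol cerebrum, Per1 in WT cerebrum, Tsc22d3 in both groups of cerebella and Fkbp5 in both groups of thymi, and none was at 0. EdgeR called 0 of the 6 in each organ, with an unadjusted p under 0.05 for 3 in thymus, 4 in cerebrum and 3 in cerebellum, beside 24.4%, 9.66% and 3.16% of all genes. Without Tol cerebellum 2 the cerebellum gave 3 as well. DESeq2 called 2, 4 and 1 of the 6, and 1252, 183 and 9 of all genes. Per1, a circadian gene named after its values were seen, had the lowest p of the 6 in cerebrum (log2 fold change −1.40 ± 0.271, edgeR adjusted p = 0.187). Their part in the Cdkn1a values was not tested. Neuron markers (Tol cerebra 7470.3 to 9635 CPM, WT 6512 to 8528 CPM) and oligodendrocyte markers (3719.7 to 4458 CPM and 3829.9 to 5693 CPM) overlapped between the genotypes in cerebrum.

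Genes whose pattern was most like that of Cdkn1a were sought over all 22 libraries, on log2(CPM + 1) after each organ's mean was taken out. The 5 with the highest Pearson correlation were Plekhf1 (r = 0.90), Gm20219 (r = 0.88), Siah2 (r = 0.87), Oma1 (r = 0.87) and Nuak1 (r = 0.87), among 14085 other genes that passed the filter in all 3 organs. Spearman's rho was 0.86, 0.77, 0.74, 0.75 and 0.71 in the same order, and without Tol cerebellum 2 the r over 21 libraries was 0.81, 0.73, 0.73, 0.73 and 0.70. The points share organ and genotype, so these values describe the pattern and test nothing. Plekhf1, which led, had 1.66 to 2.76 CPM in the Tol cerebra, below the 3.48 to 5.34 CPM of the WT cerebra, and Nuak1 had 82.9 to 108 CPM and 118 to 136 CPM. Of the 8 other members in this set, Mdm2 came closest to Cdkn1a (r = 0.77, place 98), followed by Sesn1 (r = 0.67, place 454) and Trp53inp1 (r = 0.45, place 2163), and Phlda3 was at the other end (r = −0.38). Without Tol cerebellum 2 these were 0.63 for Mdm2, 0.23 for Sesn1, 0.31 for Trp53inp1 and 0.11 for Phlda3, and Mdm2 remained the member nearest to Cdkn1a.

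The spread between libraries of 1 group, which includes counting error, also differed among members. In WT thymus the coefficient of variation over 4 libraries ran from 4.97% for Pmaip1 to 17.8% for Eda2r, which had 14 to 30 counts. In WT cerebrum it ran from 1.17% for Bax to 43.1% for Pmaip1, which had 21 to 67 counts. Cdkn1a was at 27.6% in WT and 7.31% in Tol cerebrum, and at 6.47% in WT without WT cerebrum 2. Phlda3 in WT cerebellum had the highest value of any WT group, 72.3%, which was 19.2% and no longer the highest without WT cerebellum 2.

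The members were chosen as targets of 1 factor, so their promoters were searched for the p53 decamer, the 10-base palindromic motif that p53 dimers bind, on windows from 250 bases before to 50 after each annotated start (RefSeq, GRCm38.p6; the motif is its own reverse complement, so a match counts on both strands). Of the 10 members 8 matched the table by symbol, all but Pmaip1 and Trp53inp1. A decamer was present for 5 of the 8 (Cdkn1a, Mdm2, Ccng1, Bax and Sesn1), beside 8.36% of all 32851 windows and 9.55% of 27025 genes, and not in the windows of Bbc3, Phlda3 and Eda2r. Only exact matches to RRRCWWGYYY (R a purine, W A or T, Y a pyrimidine) were counted. Cdkn1a held 2 decamers 12 bases apart in the window of its upstream start and 0 in that of its downstream start. The 10 bases directly after the second Cdkn1a decamer miss the motif at their first base alone, so they were not marked. A pair of decamers at most 13 bases apart occurred in 24 of all windows (0.0731%). Stretches of the windows that held a decamer are shown, since these members share that feature, with each decamer in capitals, 5′ to 3′ on the gene's strand: for Cdkn1a at chr17:29090729-29090968 (+), the decamers starting 73 and 51 bases before the start; for Mdm2 at chr10:117710915-117710964 (−), 186 bases before it; for Ccng1 at chr11:40755442-40755491 (−), 185 before; for Bax at chr7:45467070-45467119 (−), 201 before; and for Sesn1 at chr10:41887246-41887295 (+), 173 before the downstream start and within the gene.
Cdkn1a: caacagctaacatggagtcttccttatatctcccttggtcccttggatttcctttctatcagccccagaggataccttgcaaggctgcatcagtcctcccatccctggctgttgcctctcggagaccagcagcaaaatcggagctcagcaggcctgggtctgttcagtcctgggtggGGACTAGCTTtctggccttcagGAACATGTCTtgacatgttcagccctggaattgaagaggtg
Mdm2: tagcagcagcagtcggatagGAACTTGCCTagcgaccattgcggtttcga
Ccng1: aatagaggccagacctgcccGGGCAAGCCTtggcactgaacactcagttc
Bax: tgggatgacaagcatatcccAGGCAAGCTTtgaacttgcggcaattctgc
Sesn1: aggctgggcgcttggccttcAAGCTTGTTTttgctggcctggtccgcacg

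These letters are a description of the windows, and whether p53 binds there in these organs was not measured. Cdkn1a and Mdm2, the members below WT without overlap in both brain regions, both held a decamer, as did Ccng1, Bax and Sesn1, whose libraries overlapped between genotypes in all 3 organs. By the GENCODE vM21 annotation of GRCm38 Cdkn1a lies at chr17:29090976-29100727, Mdm2 at chr10:117688875-117710758, Ccng1 at chr11:40748552-40755311, Bax at chr7:45461697-45466898, Bbc3 at chr7:16308393-16318205, Pmaip1 at chr18:66458533-66465565, Phlda3 at chr1:135766119-135769136, Eda2r at chrX:97333840-97377216, Trp53inp1 at chr4:11156431-11174379 and Sesn1 at chr10:41809935-41908424. Ccng1 is the member that shares chromosome 11 with Col1a1, beside which the transgene was inserted.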

How the data were processed

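The 22 libraries were poly(A) RNA from 3 organs of Tol and WT mice. The authors deposited 1 table of estimated counts per gene and organ, made with Salmon 0.14.1 on GRCm38 and read into edgeR 3.9 by the submitters' notes. Counts were rounded, and library totals ran from 14543698 to 34776973 (median 21577753.5), which sets the counting precision. Genes were filtered by filterByExpr, scaled by TMM and tested with quasi-likelihood fits in edgeR 4.0.16 (R 4.3.3), with p-values adjusted over all genes tested by the Benjamini-Hochberg method. Genotypes were compared within each organ, and organs within WT mice, where a log2 fold change above 1 in size was also required. The edgeR steps were tested on simulated data with the same spread in every organ, so the wide spread of the cerebella was not covered. The alternatives were DESeq2 1.42.0, other scalings and filters, 1 fit over all libraries, a replicate block, Tol in place of WT libraries, another gene length, and leaving out each library. Settings added after seeing the data left out both cerebella numbered 2, or Tol cerebellum 2 where organs were compared in Tol mice. Replicates were checked not to be copies: each pair differed by 4.98 to 208.1 times counting noise (chi-squared per degree of freedom). The members and lists were chosen with earlier results of these data known. Named genes were the 10 members, Trp53, Mdm4, Trp63 and Trp73, up to 3 genes of each pathway list per comparison (lowest p between genotypes, largest change between organs), and the 5 genes most correlated with Cdkn1a. Genes of the marker lists, Per1 among them, are named beyond this rule. No library was left out.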

Additional observations from a re-analysis of the deposited data

Results flagged for a closer look

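In groups of 4 libraries, the highest or lowest library was compared with the rest by Dixon's gap ratio, for which chance picks out about 1 in 20 groups. Of 127 groups 13 held such a library, where chance gives 6.35. For total counts these were Tol thymus 1 (34776973, next 20527399), WT thymus 4 (29145285, next 17940261) and Tol cerebrum 4 (14543698, next 22147602). For members they were Cdkn1a in Tol cerebrum 3 (17.21 CPM, next 19.74) and in WT cerebrum 2 (48.87 CPM, next 31.22), Bax in WT cerebrum 1 (24.34 CPM, next 23.83), Trp53inp1 in WT cerebrum 1 (24.88 CPM, next 20.38) and Phlda3 in WT cerebellum 2 (29.72 CPM, next 11.08). For summed markers they were astrocyte genes in Tol thymus 2 (47.27 CPM, next 51.64), thymocyte genes in Tol cerebrum 4 (27.88 CPM, next 8.829) and WT cerebrum 3 (46.11 CPM, next 11.33), thymic epithelium genes in Tol cerebrum 4 (12.38 CPM, next 11.2) and genes of dividing cells in WT cerebrum 3 (6.904 CPM, next 10.57). Their causes were not tested.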

How the results depend on the processing

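The number of members called was 0 between genotypes in each organ under every alternative, except that DESeq2 called 1 in cerebrum and edgeR 1 in thymus without Tol thymus 1. For the difference of the Tol effect between cerebrum and thymus DESeq2 called 1 and edgeR 1 without Tol thymus 1. Between cerebellum and cerebrum 1 member was called with Tol in place of WT libraries (Pmaip1), and 3 when Tol cerebellum 2 was also left out (Bbc3, Pmaip1, Phlda3), a setting chosen after seeing the data. Leaving out 1 library gave 0 to 1 in thymus, 0 in cerebrum, 0 in cerebellum, 0 to 1 for the difference, 5 to 6 for thymus against cerebrum, 3 to 5 against cerebellum and 0 to 1 between brain regions. With merged exon length 31 of 60 places in the order of levels were kept. With a replicate block the counts were 0, 0, 0, 0, 5, 4 and 0 in the order above. Same-number libraries of Tol and WT correlated at −0.241 to 0.130 in thymus, −0.382 to 0.475 in cerebrum and −0.156 to 0.703 in cerebellum, so the numbers gave no pairing of Tol with WT. Between WT organs they correlated at −0.016 to 0.073 (thymus and cerebrum), 0.024 to 0.112 (thymus and cerebellum) and 0.008 to 0.127 (cerebrum and cerebellum). In each of these pairs of organs 5 of 8 libraries correlated best with the library of their own number. These values do not settle whether the numbers pair organs. Whether organs came from the same mice is not stated in the labels, and the main fits between organs had no block for it. Of the members' log2 fold changes under the alternatives 1144 kept direction and call, 55 turned, 25 gained a call and 5 lost it.

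Signs turned as follows, and the cause was not tested. In Tol cerebellum, Ccng1 was −0.009205 with all libraries in 1 fit, −0.00498 without a filter and −9e-06 with the replicate block, which gave 0.127 for Bax and −0.153 for Phlda3. Without both cerebella numbered 2, chosen after seeing the data, values were 0.008478 for Bax, 0.304 for Pmaip1, −0.419 for Phlda3, 0.042 for Sesn1, −0.156 for Gpx1, 0.073 for Ephx1, −0.241 for Bid, −0.061 for Sesn3 and 0.088 for Ccng2. With Tol in place of WT libraries, thymus against cerebrum gave −0.164 for Ccng1, thymus against cerebellum 0.332 for Cdkn1a, −0.601 for Phlda3 and −0.109 for Eda2r, and cerebellum against cerebrum 0.591 for Phlda3. Of these, the values with cerebellum include Tol cerebellum 2, which goes against its organ label. Without it thymus against cerebellum gave −0.386 for Eda2r and −0.067 for Sesn1, while Cdkn1a (−0.244) and Phlda3 (1.059) kept the sign they had in WT, as did Phlda3 in cerebellum against cerebrum (−1.078). With library totals Phlda3 was 0.382 in thymus against cerebrum (0.006333 with the replicate block), and between brain regions Cdkn1a was 0.016 and Phlda3 0.038.

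Leaving out 1 library gave ranges that crossed 0. In Tol thymus it was −0.106 to 0.079 for Phlda3. In Tol cerebrum it was −0.088 to 0.172 for Bbc3, −0.221 to 0.038 for Phlda3 and −0.17 to 0.037 for Trp53inp2. In Tol cerebellum it was −0.042 to 0.062 for Ccng1, −0.363 to 0.122 for Bax, −0.757 to 0.808 for Bbc3, −0.275 to 0.134 for Pmaip1, −1.055 to 1.404 for Phlda3, −0.072 to 0.497 for Eda2r, −1.095 to 0.165 for Sesn1, −0.188 to 0.559 for Gpx1, −0.871 to 0.091 for Ephx1, −0.509 to 1.882 for Bid, −0.063 to 0.326 for Sesn3 and −1.379 to 0.208 for Ccng2. For the difference between organs it was −0.188 to 0.071 for Phlda3 and −0.146 to 0.018 for Trp53inp1. Thymus against cerebrum gave −0.179 to 0.076 for Phlda3, thymus against cerebellum −0.103 to 0.713 for Phlda3 and −0.048 to 0.173 for Sesn1, and cerebellum against cerebrum −0.229 to 0.074 for Cdkn1a, −0.061 to 0.172 for Bax and −0.757 to 0.059 for Phlda3.

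Depth limits Eda2r and, in brain, Pmaip1, which had few counts. With 1 Tol cerebellum left, that library is assumed to vary like the WT libraries. Bulk RNA does not tell cell numbers from RNA per cell, and neither p53 protein nor its binding was measured.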
